A study of Mus musculus with 3 samples.

Results

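Crabp1-high stromal cells were single mouse cells of bladder assembloids that carried much Crabp1 mRNA together with fibrillar collagen mRNA and little mRNA of cell-division genes. A bladder assembloid is a cultured miniature bladder in which epithelial organoid cells are recombined with stromal cells and left to reconstitute a layered tissue. A cell was kept as a mouse cell when at least 90% of its UMIs (unique molecular identifiers, each standing for 1 captured mRNA molecule) came from mouse genes, when it had at least 500 detected mouse genes, and when under 20% of its mouse UMIs were mitochondrial. Members were the kept assembloid cells with at least 5 Crabp1 UMIs per 10000 mouse UMIs, at least 10 Col1a1 plus Col1a2 UMIs per 10000, and fewer than 10 UMIs in the sum of Top2a, Mki67, Birc5, Cdk1, Ube2c and Prc1. The members numbered 263 of 16912 kept assembloid cells and of 23925 kept cells in all, with 169 in 1-day assembloids and 94 in 7-day assembloids. These measured values of Crabp1, the collagens and the cycle genes chose the cells, so their levels are given as descriptions.

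The study held 3 single-cell libraries, 1 per group. One library came from a pool of 8 wild-type C57BL/6 bladders of mice aged 8 to 9 weeks. The others came from a pool of 3 assembloids after 1 day of reconstitution and a pool of 3 assembloids after 7 days. The labels give neither a strain nor a source of stromal cells for the assembloids, and name no treatment other than enzymatic dissociation. With 1 pooled library per group no replicate spread can be measured, so no difference was tested, and each interval given is a 95% interval for counting error only.

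CRABP1 is a small cytosolic protein that binds retinoic acid, the active derivative of vitamin A, and shields or channels it inside the cell. It is known from embryonic mesenchyme and from some fibroblast populations of the adult. Stromal cells placed in culture or in a wound commonly become myofibroblasts, which make smooth muscle actin (Acta2) and transgelin (Tagln) without being muscle. Mature visceral smooth muscle of the bladder wall makes these proteins too, and in addition smooth muscle myosin (Myh11), desmin (Des), enteric gamma-actin (Actg2) and myosin light chain kinase (Mylk).

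The kept mouse cells numbered 7013 in bladder, 8538 in 1-day assembloids and 8374 in 7-day assembloids, and the deposited matrices held 93560608 to 135955678 UMIs each. The libraries shared 21 to 114 cell barcodes pairwise, and 1 member (at 1 day) had a barcode also present in another library. A doublet caller marked 2.41% to 3.39% of the kept cells, among them 6 members at 1 day and 2 at 7 days. The members held a median of 17836 UMIs at 1 day and 29484 at 7 days, against 5805 in the 243 bladder smooth muscle cells set beside them. Those smooth muscle cells were the kept bladder cells with at least 20 Actg2 plus Des UMIs per 10000.

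The promoter sequences of 4 genes that name these cells are shown because these genes name the cells; they share some known letter patterns and differ in others. Each line holds the 250 bases before the RefSeq start in GRCm38.p6, the mm10 assembly, 5′ to 3′ on the gene's strand. Crabp1 lies on the + strand at chr9:54764748-54773110 and its upstream bases at chr9:54764498-54764747. Capitals mark, on this line only, GGGCGG or its reverse complement CCGCCC, a letter pattern bound by Sp-family factors, found 5 times from 12 to 178 bases before the start.

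Crabp1: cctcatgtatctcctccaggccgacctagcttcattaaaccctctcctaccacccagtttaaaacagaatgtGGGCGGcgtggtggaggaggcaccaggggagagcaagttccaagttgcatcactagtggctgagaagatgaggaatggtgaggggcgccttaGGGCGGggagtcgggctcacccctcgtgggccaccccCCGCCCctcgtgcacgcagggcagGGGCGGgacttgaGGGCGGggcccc

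GGGCGG in either orientation also occurs, left in lower case, once before Lrrc15 and 2 times before Acta1, and not before Sprr2k. It occurs in 32.7% of the 32851 promoters of the RefSeq table. Lrrc15 lies on the minus strand at chr16:30269302-30283256, with its upstream bases at chr16:30283255-30283504, and Sprr2k on the + strand at chr3:92432582-92433925, with its upstream bases at chr3:92432332-92432581. Capitals there mark TGACTCA or TGAGTCA, the AP-1 pattern, present once before Lrrc15 (53 bases before the start) and 2 times before Sprr2k (182 and 196 bases).

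Lrrc15: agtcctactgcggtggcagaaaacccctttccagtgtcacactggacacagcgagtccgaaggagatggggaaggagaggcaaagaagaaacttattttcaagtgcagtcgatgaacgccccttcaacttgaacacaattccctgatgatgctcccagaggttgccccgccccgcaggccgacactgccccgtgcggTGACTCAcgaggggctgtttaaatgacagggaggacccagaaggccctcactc

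Sprr2k: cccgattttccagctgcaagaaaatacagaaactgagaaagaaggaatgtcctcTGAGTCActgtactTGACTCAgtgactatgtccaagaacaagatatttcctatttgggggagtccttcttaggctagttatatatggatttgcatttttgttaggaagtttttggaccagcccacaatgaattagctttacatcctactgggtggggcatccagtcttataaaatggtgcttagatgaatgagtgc

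TGACTCA in either orientation occurs in 4.46% of all promoters of that length. Acta1 lies on the minus strand at chr8:123891769-123894751, with its upstream bases at chr8:123894776-123895025, and capitals mark its single CArG box, the pattern read by serum response factor, 73 bases before the start.

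Acta1: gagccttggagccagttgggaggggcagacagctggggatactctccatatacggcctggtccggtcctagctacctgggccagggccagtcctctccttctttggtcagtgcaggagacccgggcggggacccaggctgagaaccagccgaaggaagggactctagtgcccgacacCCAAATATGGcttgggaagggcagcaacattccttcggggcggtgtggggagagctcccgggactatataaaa

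A CArG box occurs in 1.47% of all promoters. The fifth label gene, Ptn at chr6:36714929-36810220 on the minus strand, holds none of the 3 patterns in its window. The patterns were chosen after the sequences had been read, and they describe letters, not binding.

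Members made up 1.98% (1.69% to 2.30%, exact binomial) of kept cells at 1 day and 1.12% (0.908% to 1.37%) at 7 days. The 2 intervals do not overlap, but each describes counting in 1 library. Of the collagen-positive, non-cycling cells alone, 3.61% of 4681 were members at 1 day and 2.45% of 3830 at 7 days. The 7-day denominator was mixed. Many of its cells had profiles nearer to bladder collagen-positive cells than to 1-day ones, and among the cells nearer to 1-day ones, a split chosen after the data were seen, 92 of 2470 (3.72%, 3.01% to 4.55%) were members. The lower share at 7 days was thus not seen among those cells. The split used all genes, Crabp1 among them, which favours placing Crabp1-high cells on that side. How far this moved the share was not tested. No bladder cell passed the same thresholds, 0 of 7013, with an exact binomial upper limit of 0.0526%. Only 2 bladder cells (0.0285%) held any Crabp1 UMI, whereas 1129 cells (13.2%) did so at 1 day and 710 (8.48%) at 7 days. The other stromal cells, defined below, were chosen for little Crabp1, and stromal cells between their limit and the membership threshold were left out. After each cell was thinned to 2500 UMIs, Crabp1 was detected in 0.905% of these other stromal cells at 1 day and 1.25% at 7 days. These low shares follow from that choice and do not measure Crabp1 in all stroma outside the members. In the urothelial cells of the assembloids, which should lack Crabp1, the shares were 0.245% and 0.297%.

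The members were the upper end of the Crabp1 values, with no empty range below them. At 1 day, 3898 collagen-positive non-cycling cells had no Crabp1 UMI, 297 lay above 0 and under 1 per 10000, 317 lay from 1 to under 5, 102 from 5 to under 10, 50 from 10 to under 20, and 17 at 20 and over. At 7 days the corresponding counts were 3368, 206, 162, 52, 32 and 10. Just under the threshold, at 4 to under 5 per 10000, there were 42 cells at 1 day and 22 at 7 days, and just over it, at 5 to under 6, there were 31 and 23. No gap separated members from non-members in either library. At 1 day the 42 and 31 cells next to the threshold held only 341 and 321 Crabp1 UMIs in all. Counting error at such low counts can fill a gap, so these counts cannot tell a continuous range from overlapping groups. The median member held 8.97 Crabp1 UMIs per 10000 at 1 day and 8.11 at 7 days, with maxima of 62.3 and 37.5.

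**Figure D1:**
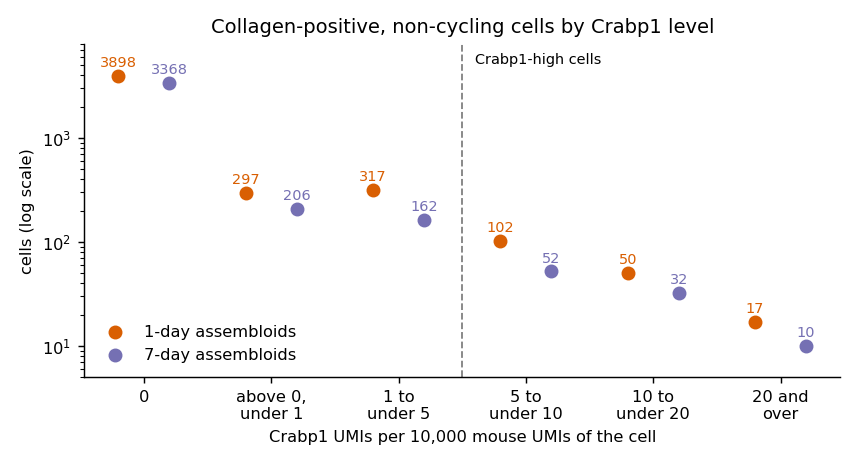
Collagen-positive, non-cycling cells of each assembloid library by Crabp1 UMIs per 10000 mouse UMIs of the cell (x axis), with the number of cells on a log scale (y axis); the dashed line marks the membership threshold of 5. No range is empty: counts run from 3898 and 3368 cells at 0 to 317 and 162 at 1 to under 5 and 17 and 10 cells at 20 and over.

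Cells that passed the Crabp1 and collagen thresholds but had 10 or more cycle-gene UMIs were counted apart. They were 58 of 227 (25.6%) at 1 day and 37 of 131 (28.2%) at 7 days. Among collagen-positive cells with Crabp1 under 1 per 10000 the cycling share was 23.8% at 1 day and 15.6% at 7 days. The exact binomial intervals of the 2 shares overlap at 1 day and do not at 7 days, where they are 20.7% to 36.8% and 14.5% to 16.8%. Among 7-day cells nearer to 1-day than to bladder ones, the cycling share was 28.7% (21.1% to 37.3%) with high Crabp1. It was 22.8% (21.3% to 24.4%) with Crabp1 under 1, and these intervals overlap. The cut of 10 UMIs was not scaled to depth, so deeper cells pass it more easily. At 7 days non-cycling cells held a median of 29484 UMIs in members and 14845 with Crabp1 under 1 (22579 in those nearer to 1-day cells). At 1 day these medians were 17836 and 17395. The part of depth in the cycling shares was not tested. At 1 day 350 of 5865 genes (5.97%) were at least 2-fold higher in the cycling Crabp1-high cells than in members with an interval off 1 and 44 (0.750%) lower, and at 7 days 387 of 6015 (6.43%) and 45 (0.748%). All 20 S and G2/M phase genes were higher, as their selection fixes for the 6 gating genes. None of the 19 collagen genes and none of the 16 focal adhesion genes was called in either direction in either library. Lrrc15, a membrane protein among the label markers, was at 121 CPM (UMIs summed over cells, per 1000000 mouse UMIs) in cycling cells at 1 day and 140.5 at 7 days. A further 49 cells at 1 day and 39 at 7 days had Crabp1 over the threshold with collagen under it.

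The label calls these cells contractile and lists Crabp1, Lrrc15, Ptn, Sprr2k and Acta1 as their markers. Lrrc15, a leucine-rich repeat membrane protein of TGF-beta-exposed mesenchymal cells, was at 144 CPM in 1-day members and 155 in 7-day members. It was at 7.81 and 9.19 CPM in the other stromal cells of the same libraries and had no UMI in bladder smooth muscle. Ptn, the secreted heparin-binding growth factor pleiotrophin, was at 364 and 307 CPM in members and 63.5 and 89.5 in other stromal cells. Sprr2k, a small proline-rich gene of the cornified-envelope family, was at 79.7 and 69.7 CPM against 17.5 and 21.2. The Sprr2 genes are close copies of each other, so the split of reads among them is uncertain. These 3 markers were higher in members than in other stroma in both libraries.

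Acta1, skeletal muscle alpha-actin, was not past 2-fold above other stroma in both libraries. It was at 224 CPM in 1-day members and 40.4 in 7-day members, against 59.7 and 36.6 in other stromal cells and 354 in bladder smooth muscle. Acta1 was detected in 49 of 169 members (29.0%) at 1 day and 27 of 94 (28.7%) at 7 days. Thinned to a common 2500 UMIs, it was detected in 25 of 162 (15.4%, 10.2% to 21.9%) and 7 of 87 (8.05%, 3.30% to 15.9%), with overlapping intervals. At 1 day its 709 UMIs were concentrated, with 162 (22.8%) in a single cell and 297 (41.9%) in 3 cells, and the highest cell reached 53.7 per 10000 against 5.97 at 7 days. The 7-day to 1-day difference of Acta1 was -2.47 on the log2 scale (-2.76 to -2.19), and -2.36 with the highest cell of each library left out. With a Crabp1 threshold of 2 per 10000 it was -0.80.

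Few members carried the whole marker set. Besides Crabp1, none of the other 4 markers was detected in 16 members (9.47%) at 1 day and 8 (8.51%) at 7 days, and all 4 in 11 (6.51%) and 9 (9.57%). In other stromal cells none of the 4 was detected in 71.3% and 74.5%, and all 4 in 0.763% and 0.588%. At a common depth of 2500 UMIs, which left out 7 members of each library, Lrrc15 was detected in 22.8% of 1-day and 26.4% of 7-day members against 1.44% and 1.36% of other stromal cells. Ptn was detected in 30.9% and 31.0% against 6.73% and 8.16%, and without thinning in 62.7% and 63.8% of members. Lrrc15 without thinning was detected in 67.5% and 69.1% of members. Sprr2k was detected in 40.2% and 37.2% of members without thinning, and in 11.7% and 19.5% with it, against 2.32% and 1.83% of other stromal cells. Apart from Crabp1, which the rule requires, no label marker was detected in all members of either library.

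**Figure D2:**
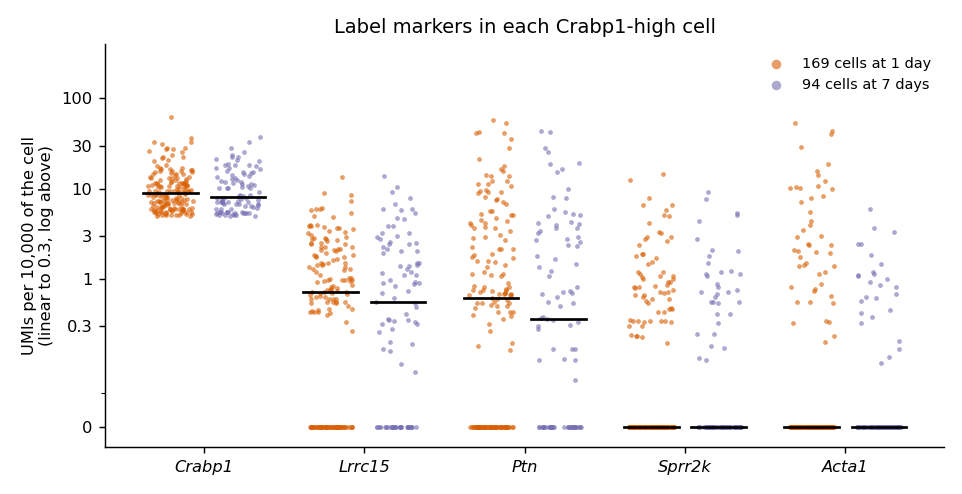
Each point is 1 Crabp1-high cell (169 at 1 day, 94 at 7 days), with UMIs per 10000 of the cell on an axis that is linear to 0.3 and logarithmic above; black bars are medians. Crabp1 medians are 8.97 and 8.11, and Acta1 is at 0 in most cells, with a maximum of 53.7 at 1 day and 5.97 at 7 days.

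Contractile genes that myofibroblasts and smooth muscle share were present in members, but below their level in bladder smooth muscle. Acta2 was at 7713 CPM in 1-day members, 7271 in 7-day members and 17757 in bladder smooth muscle, a 2.30-fold and a 2.44-fold lower level. Tagln, which encodes the actin-bundling protein transgelin, was at 6667, 6328 and 17645. Of the 14 genes of this list, 2 were at least 2-fold higher in 1-day members than in smooth muscle with an interval off 1 (the rule used for every count below) and 9 were lower. Across all 6639 genes compared at 1 day, 22.4% were higher and 23.2% lower by that rule, and at 7 days 22.3% and 22.7% of 6671. The higher ones were the non-muscle isoforms Tpm4 (tropomyosin 4) at 733 and 727 CPM against 134, and Cnn2 (calponin 2) at 689 and 701 against 209.6. The median log2 difference of the list was -1.44 at 1 day and -1.48 at 7 days, beside 0.09 and 0.11 over all genes. The 1-day and 7-day comparisons share the same bladder cells, so their likeness is not independent.

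All 15 genes of the mature smooth muscle list were lower in members than in bladder smooth muscle in both comparisons, with a median log2 difference of -5.51 at 1 day and -6.40 at 7 days. Myh11 was at 10.8 and 11.2 CPM against 5019. Des was at 4.75 and 1.70 against 3888. Mylk, counted with the shared genes, was at 24.0 and 18.0 against 3116. Actg2 was not as low, at 345 and 327 CPM against 2667, and was detected in 70.4% and 59.6% of members. The bladder cells were selected by Actg2 and Des, so those values describe the gate.

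Lmod1, a leiomodin that nucleates actin filaments in smooth muscle, kept a level of 202 and 191 CPM against 909. Myocd, the smooth muscle coactivator myocardin, was 81.6-fold lower at 1 day, on 3 UMIs in members (log2 -8.86 to -4.99). Pln (phospholamban) and Pcp4 had no UMI in members of either library, at least 348-fold and 284-fold lower at 1 day and at least 324-fold and 264-fold lower at 7 days, counting 3 UMIs over the group as the floor. Rgs5, a regulator of G-protein signalling found in mural cells, was at 0 at 1 day and 0.340 at 7 days against 379. Receptors and channels of bladder muscle followed the same course, with 8 of the 12 genes of that list lower at 1 day and 7 at 7 days, and none higher. Among them P2rx1, the ATP-gated receptor of bladder contraction, was at 0 and 0.340 against 295. Of the members, 8 (4.73%) at 1 day and 3 (3.19%) at 7 days passed the Actg2 plus Des cut used for bladder smooth muscle, as did 17.6% and 10.1% of all kept cells in those libraries.

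**Figure D3:**
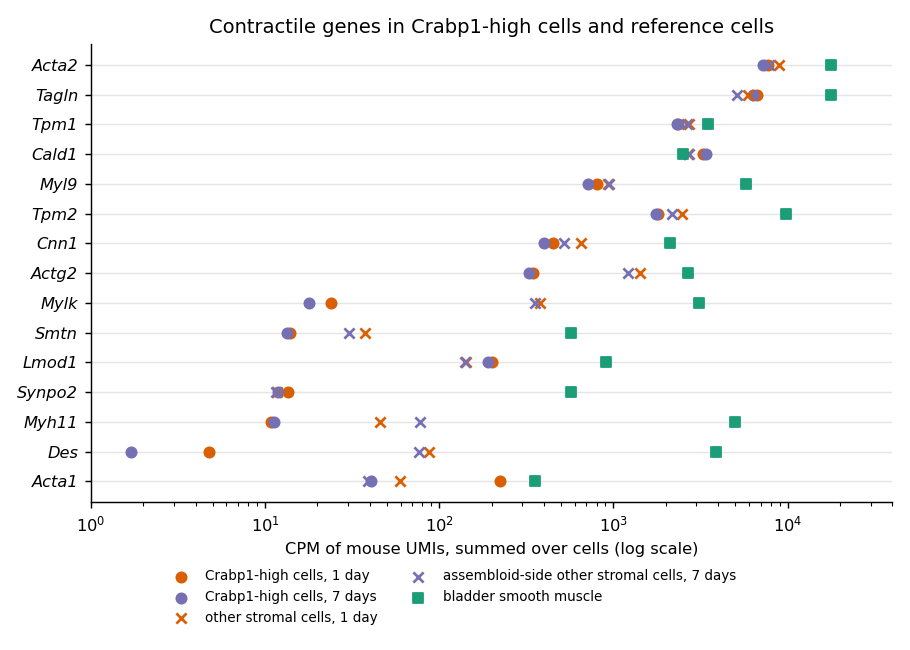
CPM summed over cells (log x axis) for 15 contractile genes in Crabp1-high cells of each library, other stromal cells (at 7 days the assembloid-side ones) and bladder smooth muscle. Acta2 and Tagln lie within 3-fold of bladder smooth muscle, while Myh11 is at 10.8 and 11.2 in Crabp1-high cells and 5019 in smooth muscle.

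Genes higher in members than in bladder smooth muscle included several with no UMI in the smooth muscle cells. Hmga2, a chromatin protein of embryonic and proliferating mesenchyme, was at 920.4 and 869.8 CPM, at least 477-fold and 451-fold higher. It was detected in 96.4% of 1-day and 96.8% of 7-day members. Spp1, which encodes osteopontin, was at 453 and 469.7, at least 235-fold and 243-fold higher. Ddah1, an enzyme that degrades asymmetric dimethylarginine, was at 429 and 411, at least 222-fold and 213-fold higher. Hmga2 is again described against other stromal cells below, where Spp1 goes the other way.

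Several TGF-beta and matrix-processing genes were higher in members than in bladder smooth muscle, while collagens went both ways. Of the 20 TGF-beta and myofibroblast genes, 9 were higher and 2 lower (Tgfb2, Tgfb3) in both comparisons. Ctgf, a matricellular growth factor, was at 882 and 968 CPM against 77.2, and Tnc (tenascin C) at 672 and 846 against 32.2. Of the 18 collagen cross-linking and processing genes, 11 were higher at 1 day and 13 at 7 days, with 1 lower in each. Lox, the lysyl oxidase, was at 909.9 and 944 CPM against 90.7. Timp1, an inhibitor of matrix proteases, was at 1055 and 1109.7 against 7.07. Of the 19 collagen genes 7 were higher and 5 lower at 1 day, and 8 and 4 at 7 days. Col3a1, Col14a1, Col15a1 and Col18a1 were lower in both comparisons, with Col3a1 at 311 and 278 CPM against 736.

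Immediate early and heat shock genes and the make-up of the UMIs also differed between these sets. All 14 immediate early and heat shock genes were lower in members, with medians of -4.85 and -4.65, and Fos was at 15.5 and 23.5 CPM against 4775. Median mitochondrial shares were 5.20% and 4.99% in members against 8.00% in the smooth muscle cells, and ribosomal protein shares 21.7% and 21.9% against 11.4%. Culture, cell type and library cannot be told apart in this comparison.

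Other stromal cells of the same library give a comparison made within 1 library. They were collagen-positive, non-cycling cells with Crabp1 under 1 per 10000, 4195 at 1 day and 3574 at 7 days. At 1 day 142 of 5700 genes (2.49%) were higher in members and 295 (5.18%) lower. At 7 days 149 of 5861 (2.54%) were higher and 391 (6.67%) lower. Since the gate used Crabp1 in the same cells, these are descriptions. The 7-day set was mixed: 2221 of its cells had profiles nearer to the 1-day collagen-positive cells (assembloid-side, median 22579 UMIs) and 1353 nearer to those of bladder (bladder-side, median 2343 UMIs). Of the 7-day members, 92 were assembloid-side and 2 bladder-side. The profiles included Crabp1, which had no UMI in bladder collagen-positive cells, so the side of members was not independent of the membership rule. Against the assembloid-side cells alone, a set chosen after the data were seen, 142 genes (2.46%) were higher and 310 (5.38%) lower.

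The same genes set the members apart in both libraries. Of the genes higher at 1 day, 106 (74.6%) were also higher at 7 days, where they were 71.1% of the list, and 210 lower genes were shared (71.2% and 53.7% of the lists). No gene measured in both was called in opposite directions. With the assembloid-side set, 104 higher genes were shared (73.2% of each list) and 199 lower genes (67.5% and 64.2%). The same Crabp1 threshold chose the members of both libraries.

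**Figure D4:**
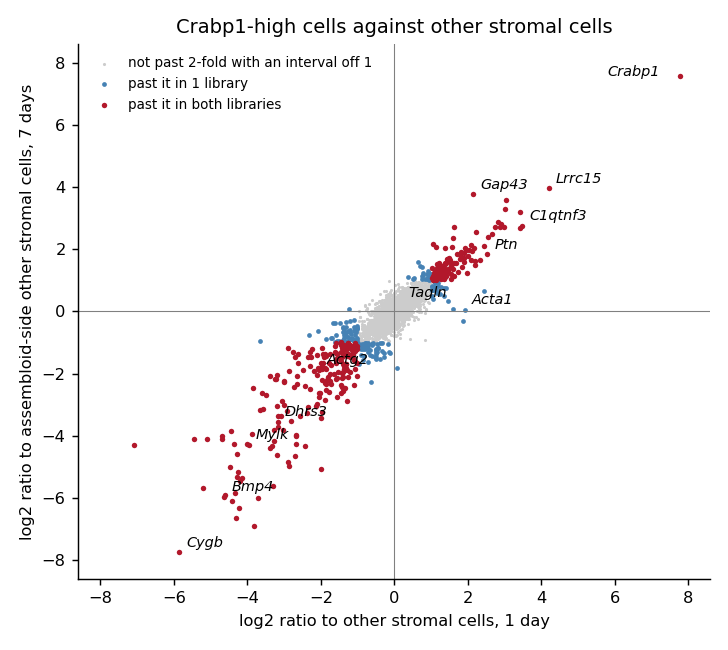
Each point is a gene measured in both libraries, with its log2 ratio of Crabp1-high to other stromal cells at 1 day (x axis) and to assembloid-side other stromal cells at 7 days (y axis). Red points are at least 2-fold in both with an interval off 1; the 104 higher and 199 lower ones lie in matching quadrants, and Acta1 is past it at 1 day only.

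Lrrc15 showed an 18.4-fold higher level in members than in other stroma at 1 day and a 16.9-fold higher level at 7 days (log2 4.20, 4.02 to 4.38, and 4.08, 3.89 to 4.26). Ptn was 5.74-fold and 3.43-fold higher, and Sprr2k 4.56-fold and 3.29-fold. C1qtnf3, a secreted C1q/TNF-related protein, was at 112 and 92.8 CPM against 10.0 and 18.8, 11.2-fold and 4.93-fold higher. Flrt2, an adhesion and guidance protein that binds FGF receptors and Unc5, was at 364 and 359 against 50.2 and 53.5, 7.24-fold and 6.70-fold higher. Klk8, a secreted serine protease, was at 176 and 145 against 38.0 and 23.7. These 6 genes were higher at both times.

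Signalling and growth genes were also among the higher ones. Gng11, a G-protein gamma subunit, was at 625 and 622 CPM against 145 and 166, 4.31-fold and 3.74-fold higher. Emp1, a membrane protein of the PMP22 family, was at 561 and 544 against 141 and 162. Hmga2 was 3.51-fold and 3.66-fold higher than in other stroma, at 262 and 238 CPM there. Ccnd1, cyclin D1, was at 359.7 and 338 against 129 and 98.0. Members and other stroma alike were chosen to be low in division genes. Hmga2 and Ccnd1 were the only higher genes of the 13 cell cycle inhibitor and culture genes at 1 day. Cdkn2a, which encodes the inhibitors p16 and p19, was at 107 and 90.4 CPM in members and 79.0 and 57.4 in other stroma, short of 2-fold.

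A few higher genes were more separated at 7 days than at 1 day. Gap43, a growth-cone protein, was at 60.4 and 101 CPM in members and 13.8 and 6.98 in other stroma, 4.40-fold and 14.4-fold higher. H19, an imprinted non-coding RNA of fetal tissue, was at 81.0 and 135 against 26.9 and 24.2. Igfbp5, an IGF-binding protein, was at 82.3 and 150.2 against 27.1 and 31.9. Between the libraries, members differed in these genes by 0.73 (Gap43), 0.73 (H19) and 0.87 (Igfbp5) on the log2 scale, short of 2-fold. Without the highest cell of each library the H19 difference was 0.23 and that of Igfbp5 0.51.

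No retinoid gene other than Crabp1 was higher in members. Vitamin A is oxidised in cells to retinal and by ALDH1A enzymes to retinoic acid, and DHRS3 turns retinal back to retinol. Dhrs3, itself a known retinoic acid response gene, was at 14.2 and 11.9 CPM in members against 130.4 and 142 in other stroma, 9.06-fold and 11.8-fold lower. Aldh1a3 was at 0.949 and 1.70 against 43.0 and 19.2, and its 1-day ratio of 38.8-fold rests on 3 UMIs in members (log2 -7.78 to -3.95). Fabp5, a fatty acid carrier that also binds retinoic acid, was at 395 and 408 against 499.9 and 353. Of the 17 retinoid genes 1 was higher in each library, the gating gene Crabp1, and 3 were lower.

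Contractile genes of the smooth muscle lists did not set members above other assembloid stroma. Of the 14 shared contractile genes none was higher and 1, Mylk, was lower in each library, with medians of -0.19 and -0.08. Acta2 was at 8918 and 7407 CPM in other stroma, 1.16-fold and 1.02-fold above members, and Tagln at 5915 and 4890.1, where members were 1.13-fold and 1.29-fold above. Mylk was at 378 and 348 in other stroma, 15.6-fold and 19.1-fold lower in members. Of the 15 mature smooth muscle genes 5 were lower (Myh11, Actg2, Des, Smtn, Hspb6) and none higher. Actg2 was at 1429.8 and 1129.7 in other stroma, 4.14-fold and 3.45-fold lower in members, and Des at 87.8 and 82.7, 17.9-fold and 44.2-fold lower. The word contractile in the label is therefore matched by Acta2 and Tagln at the level of the surrounding stroma, and not by genes of mature smooth muscle. Acta1, on neither of these lists, was past 2-fold higher in members at 1 day only. It was at 224 CPM against 59.7 at 1 day and 40.4 against 36.6 at 7 days.

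Collagens and small proteoglycans of interstitial fibroblasts were lower in members. For these genes the 7-day other stroma included the bladder-side cells, except where assembloid-side cells are named. The 7-day ratios are therefore not ratios to assembloid stroma alone. Of 19 collagen genes 1 was higher and 9 were lower at 1 day, and 1 and 10 at 7 days, with medians of -0.98 and -1.07. Col3a1 was at 311 and 278 CPM against 1347 and 2689, 4.33-fold and 9.65-fold lower. Col14a1 was at 3.16 and 1.70 against 82.0 and 149, and Col15a1 at 2.85 and 1.36 against 112 and 89.7. The higher one was Col7a1, the anchoring fibril collagen, at 42.4 and 48.3 against 12.3 and 12.7. Col1a1 and Col1a2, part of the gate, were at 2167 and 1348 CPM in 1-day members and 2062 and 1388 in 7-day members, against 3853 and 2935 and then 4730.1 and 3707.

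Dcn, the proteoglycan decorin, was at 74.7 and 84.0 CPM against 482 and 2205, 6.45-fold and 26.2-fold lower, and 16.2-fold lower at 7 days against the assembloid-side cells. Lum (lumican) was at 4.75 and 4.42 against 48.2 and 307. Of the 14 small proteoglycan and adhesive matrix genes 6 were lower at 1 day and 1 was higher, Aspn (asporin, 2.93-fold). Of the 12 fibroblast markers 5 were lower at 1 day and none higher. Several matrix mRNAs of interstitial fibroblasts and several mRNAs of mature muscle were thus lower in members than in the other stromal cells.

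Among secreted signals more were lower than higher. Here too the 7-day other stroma included the bladder-side cells. Of the 22 growth factor genes at 1 day 1 was higher, Ptn, and 6 were lower, and at 7 days 1 was higher and 4 were lower. Bmp4, a signal of bladder stroma to the urothelium, was at 0.949 and 1.70 CPM in members against 27.4 and 121, with a 1-day ratio that rests on 3 UMIs (log2 -7.13 to -3.30) and a 64.7-fold lower level at 7 days. Igf1 was at 2.85 and 4.08 against 66.8 and 143, 22.2-fold and 33.7-fold lower. Wnt2 was at 6.96 and 6.46 against 28.5 and 76.9. Dkk2, a secreted Wnt inhibitor, went the other way at 56.0 and 86.3 against 11.1 and 28.4, 5.06-fold and 3.05-fold higher. Spp1 was at 945 and 938 in other stroma, 2.08-fold lower in members at 1 day and at the 2-fold limit at 7 days.

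Among TGF-beta and myofibroblast genes only Lrrc15 was higher at 1 day, of 20 in the list, and Lrrc15 and Tnc at 7 days. Lower at 1 day were Tgfbi, Tgfb2, Ltbp2 and Itga11. Ctgf was at 772 and 715 CPM in other stroma, within 2-fold of members. Timp1 was at 3839.8 and 1916, 3.64-fold and 1.73-fold lower in members. None of 16 focal adhesion genes and none of 14 oxidative phosphorylation genes was called in either direction at 1 day.

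Several genes that differed in members already differed in cells below the membership threshold, but not all did so equally. Des at 7 days was at 82.7 CPM under 1 per 10000 and still at 67.6 from 1 to under 5. In the member ranges it was at 2.05, 0.944 and 2.40. At 1 day Des was at 87.8 and 31.3, then at 6.52, 2.01 and 3.06. Dhrs3 at 1 day was at 130.4 CPM in cells with Crabp1 under 1 per 10000, already at 26.6 in cells from 1 to under 5, and at 17.9, 9.05 and 9.18 in the 3 member ranges, the last on 3 UMIs. Mylk was at 378, then 37.0, 28.8, 20.1 and 9.18. Col3a1 was at 1347, then 366, 364, 249 and 199. From cells under 1 to cells from 1 to under 5, which are not members, Dhrs3 was 4.90-fold lower, Mylk 10.2-fold and Col3a1 3.68-fold.

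Lrrc15 at 1 day went on from 7.81 under 1 to 68.5, 118, 175 and 193, and at 7 days from 9.19 to 78.3, 104, 171 and 295. Flrt2 went from 50.2 to 238, 307, 429 and 484 at 1 day, and from 53.5 to 232, 279.6, 334 and 699 at 7 days. The first step was 8.77-fold for Lrrc15 and 4.74-fold for Flrt2 at 1 day, and the further difference up to 10 to under 20 per 10000 was 2.55-fold and 1.80-fold. Over that further span Dhrs3 was 2.94-fold lower, Mylk 1.84-fold and Col3a1 1.47-fold. For all 5 genes the first step was thus the larger one at both times. At 7 days it ranged from 4.34-fold for Flrt2 to 12.2-fold for Mylk. At 1 day Crabp1 itself went from 5.19 to 242 CPM over the first step and from 242 to 1299.7 over the further span. At 7 days Crabp1 went from 5.71 to 248 and then to 1359. The first step thus spanned the larger Crabp1 ratio, so the sizes of the 2 steps cannot be compared directly. Actg2 was lower in each further member range, at 428, 269.6 and 110.2 at 1 day and 509, 179 and 62.4 at 7 days, and Tagln was at 7547, 5526 and 5187 at 1 day. The highest range held only 17 and 10 cells. Without it, Lrrc15, Flrt2 and Actg2 kept the same order over the ranges that remain above 1 per 10000 in each library, except that Actg2 at 7 days was at 449 from 1 to under 5 and 509 from 5 to under 10.

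**Figure D5:**
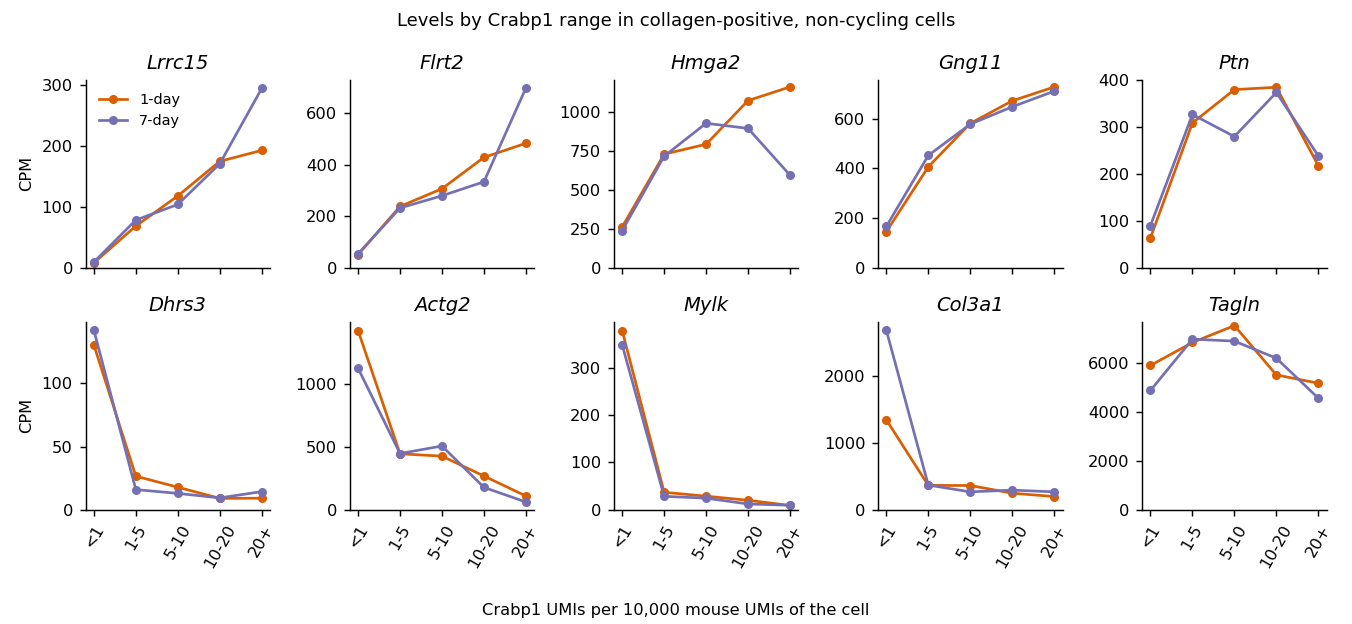
CPM summed over the collagen-positive, non-cycling cells of each Crabp1 range (x axis, Crabp1 UMIs per 10000) for 10 genes in 1-day (orange) and 7-day (purple) assembloids. Dhrs3, Mylk and Col3a1 are lower and Lrrc15 and Flrt2 higher already in the second range, which holds no members; the last range holds 17 and 10 cells.

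Members of the 2 libraries were close to each other. Of 5519 genes 11 (0.199%) were at least 2-fold higher at 7 days with an interval off 1 and 9 (0.163%) lower, and the median gene differed by 0.01 on the log2 scale. In the other stromal cells, with the assembloid-side set at 7 days, 63 of 5536 genes (1.14%) were higher and 29 (0.524%) lower. That 7-day set was chosen for profiles nearer to 1-day cells, so some likeness was built in. Summed UMIs at 1 and 7 days were 3160708 and 2942179 in members, against 72995072 and 52676679 in these other stromal cells. The call counts of members and other stroma therefore cannot be compared directly. In members Lrrc15 differed by 0.11 (-0.08 to 0.30), Hmga2 by -0.08 and Tagln by -0.08. Gstm1, a glutathione transferase, was at 77.5 CPM at 7 days and 32.3 at 1 day, 1.26 higher on the log2 scale, and was detected in 83.0% and 36.7% of members. Apoe, apolipoprotein E, was at 24.1 and 4.75. Rasl11b, a Ras-like GTPase, was detected in 54.3% of 7-day and 17.8% of 1-day members.

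Cck, the peptide hormone precursor cholecystokinin, was at 86.7 CPM at 7 days against 217 at 1 day, and Mmp9, a gelatinase, at 6.80 against 30.4. Some of these differences rested largely or wholly on 1 cell. Sprr1a differed by 3.59 with 159 of its 185 UMIs at 7 days in 1 cell, and by 1.31 without the highest cells. Psca differed by 3.40 with 130 of 142 UMIs in 1 cell, and by 0.12 without. Mgp, matrix Gla protein, differed by -1.66 with 252 of 355 UMIs at 1 day in 1 cell, and by -0.25 without. Without the highest cell per gene and library, 9 of the 11 higher and 6 of the 9 lower calls were kept, and those lost were Psca, Krt15, Mgp, Lce1h and Mcpt8. The median depth of members differed too, 17836 against 29484 UMIs, and its part in detection shares was not tested.

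Markers of other cell types were low in members. Summed over the urothelial list they were at 45.2 CPM at 1 day and 134 at 7 days, against 126 and 314 in other stroma, and Krt15 (26.2 against 12.7) and Krt18 (21.8 against 7.59) were higher at 7 days than at 1 day, Krt15 not without its highest cells. The pericyte list summed to 190.5 and 215 CPM against 1585 in bladder smooth muscle. The glia list summed to 194 in both libraries, below the 992 of other 1-day stroma. Endothelial genes summed to 21.8 and 17.3, mesothelial genes to 31.6 and 47.2, and myeloid and lymphocyte genes to 4.11 and 5.44, with Ptprc, Cd3e and Cd79a at 0 in 1-day members. The part of these mRNAs in the differences above was not tested.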

How the data were processed

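Single-cell RNA was measured in 3 libraries, 1 per group. The authors deposited UMI counts per gene and cell, made with Cell Ranger 3.1.0 against GRCh38 plus mm10, per the submitters' processing notes; no label names a filter applied before deposit. The cell filters and membership rule stand in the report. UMIs were summed over the cells of a set, given per 1000000 mouse UMIs (CPM), and compared as log2 ratios with 0.5 counts added and exact conditional binomial 95% intervals. A gene was counted with at least 20 CPM in the higher set, a ratio of at least 2-fold and an interval off 1. Named genes were the label markers, the 10 highest and 10 lowest ratios at 100 CPM or more, and up to 4 genes of each of 31 lists. Other genes named were chosen after their values were seen. Members and lists were chosen with earlier results of these data known. No replicate exists, so no test was run. Intervals cover counting error only. Doublets were called with Scrublet in scanpy 1.11.5 and kept. Calculations used Python 3.11.15, numpy 2.4.6, scipy 1.17.1 and pandas 2.3.3, checked on simulated counts. Upstream bases came from the RefSeq promoter table of GRCm38.p6 and gene positions from GENCODE vM21. Alternatives changed the thresholds, the total, doublets, shared barcodes and the expression minimum. Results for some genes of the lists are not reported here; the list counts include them.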

Additional observations from a re-analysis of the deposited data

How the results depend on the processing

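No paired analysis was possible because each group is 1 library. Under the alternatives 92 summary values stayed within their counting interval (shares) or within 1.5 times (counts) and 36 moved further. Of 2253 gene values 1776 stayed within their interval, 474 moved outside it and 3 that had been counted reversed. The share of members at 1 day and 7 days was 0.785% and 0.502% with Crabp1 at least 10 per 10000, 3.97% and 2.21% with at least 2, 1.65% and 0.860% with cycle genes under 3 UMIs, and 1.69% and 0.884% with collagen at least 20, an alternative chosen after seeing the data. Between 7-day and 1-day members, higher and lower genes numbered 32 and 32 with Crabp1 at least 10, 17 and 15 without mitochondrial and ribosomal protein genes, 84 and 24 as means of per-cell CPM, 96 and 53 from 5 CPM, and 0 and 3 from 100 CPM; lower genes numbered 2 with Crabp1 at least 2, and higher genes 7 without doublet calls. The share of higher calls was 55.0% in the reported comparison, 85.7% with Crabp1 at least 2, 43.8% without doublet calls and 77.8% as per-cell means. Against bladder smooth muscle, lower genes from 5 CPM numbered 2527 at 1 day and 2448 at 7 days, and from 100 CPM higher and lower genes numbered 550 and 486 at 1 day and 535 and 489 at 7 days. Leaving out mitochondrial and ribosomal protein genes moved the median gene there from 0.09 and 0.11 to 0.22 and 0.24 on the log2 scale. Against other stroma, counts were 277 and 737 from 5 CPM and 35 and 73 from 100 CPM at 1 day; at 7 days they were 290 and 871, 47 and 109, and 360 and 784 as per-cell means. The expression minimum changes which genes are compared, 9287 from 5 CPM and 1513 from 100 CPM against 5519 between the libraries; beyond that the cause of these changes was not tested. With assembloid-side cells alone, chosen after seeing the data, the 7-day share of members among collagen-positive non-cycling cells was 3.72% in place of 2.45%. The split behind that value used Crabp1 among all genes. The 7-day to 1-day difference of Mgp reversed to 1.06 with Crabp1 at least 10 and 0.22 with at least 2, and Igfbp5 at 1 day against smooth muscle to 0.83 with Actg2 plus Des at least 50. Leaving out a replicate was not possible. Genes of few UMIs, such as Aldh1a3 and Bmp4 at 1 day with 3 each, are limited by depth.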

Other observations

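Transcription factor genes that mark position along the body differed between Crabp1-high cells and the other stromal cells. They were looked at after the values of a few of them had been seen, over all 71 genes of the Hox, Irx, Pitx, En, Gata, Tbx and Foxf families. Of the 71, 9 were at least 2-fold higher with an interval off 1 in members of both libraries and 3 were lower in both, with the assembloid-side set at 7 days. The rule needs 20 CPM in the higher set, which 20 of the 71 reached. Of the 5511 genes of any kind measured in both libraries, 104 were higher in both and 199 lower in both. In each library alone, the share over all genes was 2.49% higher and 5.18% lower at 1 day, and 2.46% and 5.38% at 7 days. En1, an engrailed homeobox gene, was at 61.4 CPM in 1-day members and 52.7 in 7-day members, against 15.9 and 13.3 in other stroma and 0 in bladder smooth muscle and in bladder collagen-positive cells. It was detected in 55.0% of 1-day members, against 17.4% of the other stromal cells of that library. Irx1 was at 71.8 and 75.5 against 10.8 and 11.7, and Irx2 and Irx5 were higher as well. The 5 Hox genes of the B and C clusters that were higher in both were Hoxb4, Hoxb9, Hoxc6, Hoxc8 and Hoxc9, with Hoxc8 at 121 and 135 against 37.9 and 45.8 and Hoxb9 at 96.5 and 76.8 against 31.3 and 35.1.

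The genes lower in members were Pitx1, Gata6 and Hoxa10. Pitx1, a homeobox gene of the hindlimb and pelvic region, had no UMI in 1-day members and was at 1.36 CPM in 7-day members, against 21.5 and 30.4 in other stroma, 95.8 in bladder smooth muscle and 54.6 in bladder collagen-positive cells. At 1 day it was at least 22.7-fold lower than in other stroma. Gata6 was at 3.16 and 7.48 against 34.9 and 32.4. Foxf1, a forkhead gene of the mesenchyme around gut and bladder epithelium, was at 0.949 and 1.70 against 13.3 and 29.1 and counted as lower at 7 days only, since it did not reach 20 CPM at 1 day. In bladder it was at 79.1 in smooth muscle and 67.9 in collagen-positive cells.

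These genes also followed Crabp1 outside the members. At 1 day Foxf1 was at 14.2 CPM in the 3898 collagen-positive non-cycling cells with no Crabp1 UMI and at 0.949 in the 317 cells from 1 to under 5 per 10000, and at 7 days it was at 33.8 and 1.39. Pitx1 was at 22.7 and 2.37 at 1 day and 35.8 and 1.39 at 7 days in the same ranges. En1 went the other way, at 13.6 and 53.3 at 1 day and 9.33 and 52.1 at 7 days. The cells just under the membership range thus had Foxf1, Pitx1 and En1 levels near those of members in both libraries.

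Within the members, Spearman correlations with Crabp1 were weak in both directions and did not repeat between libraries at the upper end. Among genes with at least 100 CPM they ran from -0.29 (Ptgs2) to 0.24 (Hmga2) over 169 cells at 1 day, with Actg2 at -0.27, and from -0.37 (Mprip) to 0.31 (Timm8a1) over 94 cells at 7 days, with Hmga2 at -0.17. The 10 highest genes of each library had none in common. These cells share a library and differ in depth, and in sparse counts correlations of this size are no finding.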
